A study of Mus musculus with 11 samples.

Results

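The abundance of transfer RNAs (tRNAs) was compared between mouse embryonic fibroblasts labelled wild type (MEF Wt) overexpressing wild-type METTL1 together with WDR4 and MEF Wt cells carrying empty vector. The members are all 301 tRNA entries of the abundance table for this pair of groups, which are also all 301 entries of the series, and 4 of its 11 libraries: empty vector libraries 1 and 2 and wild-type METTL1-WDR4 libraries 1 and 2. All 4 are input libraries, made from small RNA treated with wild-type and D135S AlkB demethylase and not cleaved at methylated bases. Every entry was used, with no filter on low values, and entry names give the amino acid, the anticodon and a running number. Abundance, given as RPM (a library's reads of an entry for every 1000000 reads of tRNA entries), was analysed per entry and as sums over 54 anticodons, over 22 amino acid classes and over 16 codon boxes. A codon box holds the codons that share their first and second bases. Selenocysteine (SeC) and 1 suppressor-type entry (Sup) count as classes of their own.

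Both groups express SV40 T antigen, so the cells are an immortalised line rather than primary fibroblasts. They were stably transduced clones made with pBabe vectors and kept under puromycin and G418, with no antibiotic during expansion and lysis. The sources do not say how many clones were used, nor whether the 2 libraries of a group came from separate cultures. P-values therefore reflect only how far these libraries differ, and that difference may be technical. METTL1 and WDR4 were raised together, so the effect of either alone cannot be told apart, and neither was measured in the tRNA tables.

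METTL1 is the catalytic subunit and WDR4 the partner subunit of the complex that adds N7-methylguanosine (m7G) to the variable loop of some tRNAs. Loss of this mark is known to destabilise some of the tRNAs that carry it. A tRNA reads codons through its anticodon, whose first base, the wobble base, pairs with the last base of the codon. Isoacceptors are tRNAs with different anticodons for the same amino acid, and their relative amounts set how readily synonymous codons find a tRNA.

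The RPM steps imply totals of 16003708 and 5405585 reads for empty vector libraries 1 and 2, against 10519149 and 13814411 reads for wild-type METTL1. RPM sums to nearly the same total in every library, so each change below is a change in the share of tRNA reads, and total tRNA per cell was not measured. Among 245 entries averaging 10 RPM or more, 44 fell into 17 groups, each linked by pairs that differed by no more than 1% in each library. These groups held 45.6% of the empty vector reads, and 22 of their 46 pairs joined entries with different anticodons. The sources used here do not give how reads matching several entries were counted, so neighbouring anticodons within these groups are uncertain. Of the 46 pairs 44 lay within a single amino acid, so few joined different amino acids, but an amino acid sum may still count the same reads more than once.

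The first question was which codon boxes gained or lost tRNA. A feature was called at a limma p under 0.05 after adjustment by the Benjamini-Hochberg (BH) method. Counts of features that rose or fell are counts of called features. Of the 16 boxes 2 passed (12.5%), and both rose. CCN, read by proline tRNAs, is described here. The CCN sum was 16437 and 14999 RPM with empty vector and 19173 and 20673 RPM with wild-type METTL1 (log2 change 0.34, SE 0.07, limma adjusted p = 0.010). The groups did not overlap, as in 7 of the 16 boxes (43.8%), 6 with wild-type METTL1 above (37.5%) and 1 with it below (6.25%).

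The other 14 boxes had log2 changes from −0.15 to 0.22. UCN, a serine box, had 34115 and 28951 RPM with empty vector and 38452 and 34905 RPM with wild-type METTL1 (log2 change 0.22, limma adjusted p = 0.12). AAN, shared by lysine and asparagine, had 41119 and 38717 against 45765 and 45281 RPM (0.19, limma adjusted p = 0.069). In neither did the groups overlap, although neither change was called. The CCN call was lost when either wild-type METTL1 library was left out, with limma adjusted p of 0.27 and 0.37 without libraries 1 and 2.

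By amino acid, 8 of the 22 sums passed (36.4%): 7 rose (31.8%) and 1 fell (4.55%). The groups did not overlap in 12 sums (54.5%), 8 with wild-type METTL1 above (36.4%) and 4 with it below (18.2%). Selenocysteine, aspartate, glutamate, proline, lysine, cysteine and phenylalanine tRNAs rose, and the suppressor-type entry fell. The log2 changes were 0.85 for SeC, 0.62 for Asp, 0.43 for Glu, 0.34 for Pro, 0.26 for Lys, 0.23 for Cys and 0.22 for Phe, each with an SE of 0.08. The fit drew the variances of the 22 sums close to a common value (64.3 prior degrees of freedom). These SEs therefore say little about the replicates of each class. The suppressor-type entry also had an SE of 0.08 here, against 0.20 in the fit over entries. The remaining 14 sums ranged from −0.15 for Ala to 0.16 for Ser, and their 95% intervals together ran from −0.31 to 0.32. For the sums at the ends of this range, changes up to those limits are therefore not excluded. The calls for Lys, Cys and Phe were lost when libraries were rescaled or centred, when the mutant METTL1 libraries were added to the fit, and without empty vector library 2 or either wild-type METTL1 library. The Pro call was lost when libraries were centred on all entries and without wild-type METTL1 library 2 (limma adjusted p = 0.057 and 0.056), and those for SeC, Asp, Glu and Sup held in every alternative fit of the amino acid sums that kept them.

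**Figure D1:**
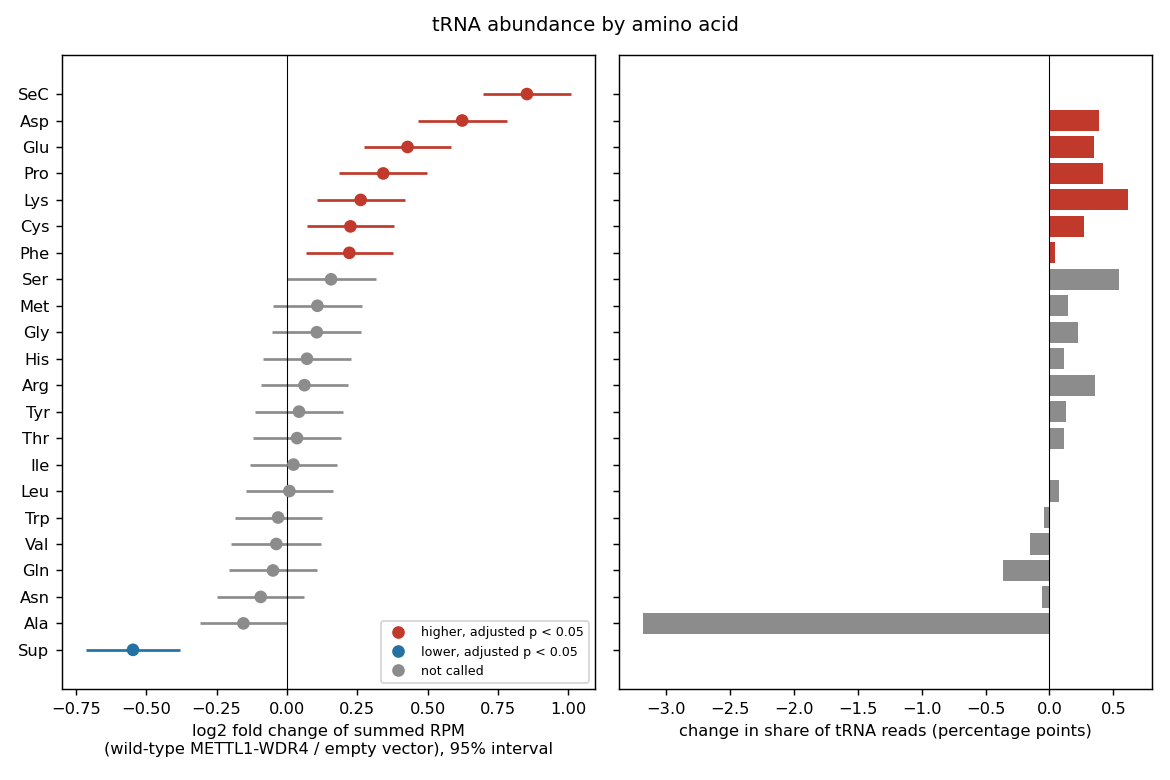
Left, log2 change of the summed RPM of each amino acid class with its 95% limma interval; right, the change in its mean share of tRNA reads in percentage points, wild-type METTL1-WDR4 minus empty vector (2 libraries each). Alanine moves 3.17 points down, while no other class moves by more than 0.62 points.

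Alanine tRNAs made up the largest part of the pool and had the largest change in RPM. Their sum was 310002 and 315495 RPM with empty vector and 282077 and 279919 RPM with wild-type METTL1, so both treated libraries lay below both controls. Their mean share, 31.3% with empty vector, was 3.17 percentage points lower, 83.7% of the RPM lost over the 6 amino acid classes with a lower mean. On the log2 scale this is only −0.15 (95% interval −0.31 to −0.00028), and the sum was not called (limma adjusted p = 0.11). It was called lower when libraries were centred on all entries (−0.30), centred on the no-m7G list (tRNAs chosen as lacking m7G, −0.24), or rescaled over the entries other than alanine (−0.22). The rescaling was added after seeing the data. Each of these settings lowers the log2 change of every sum, so the larger fall of alanine follows from the reference chosen. With a variance trend added to the fits of sums, the same values were called lower as the GCN box, which holds all alanine codons (limma adjusted p = 1.4e-05). The anticodon sums AlaTGC (9.2e-06) and AlaCGC (8.8e-05) were also called lower. As an amino acid sum, alanine was not called under that setting, so the call depends on the set of sums fitted together.

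The lower alanine values were in its most abundant entries. All 11 alanine entries above 10000 RPM, with anticodons CGC and TGC, fell, with log2 changes from −0.19 to −0.14. Together they went from 28.9% to 25.8% of the reads. Of these 11, 7 form the largest near-identical group (AlaCGC8, AlaCGC10, AlaCGC18, AlaTGC7, AlaTGC35, AlaTGC84 and AlaTGC106) and AlaCGC7 and AlaTGC23 form another, so they are not 11 separate measurements. With each near-identical group counted once, alanine held a mean of 20.5% of the reads with empty vector and 18.1% with wild-type METTL1.

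The most abundant entry, AlaTGC23, stood at 38500 and 38903 RPM with empty vector and at 35199 and 35023 RPM with wild-type METTL1 (log2 change −0.14, SE 0.05, limma adjusted p = 0.032). The replicates of a group differed by far less than the groups did. The call was lost when any 1 library was left out, when the mutant libraries joined the fit, and without the variance trend. The other 33 alanine entries behaved differently in number: 5 rose, 2 fell and their median log2 change was 0.10. As a mean over entries, the alanine change is 0.08 rather than −0.15, so its direction depends on whether abundant entries carry more weight.

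**Figure D2:**
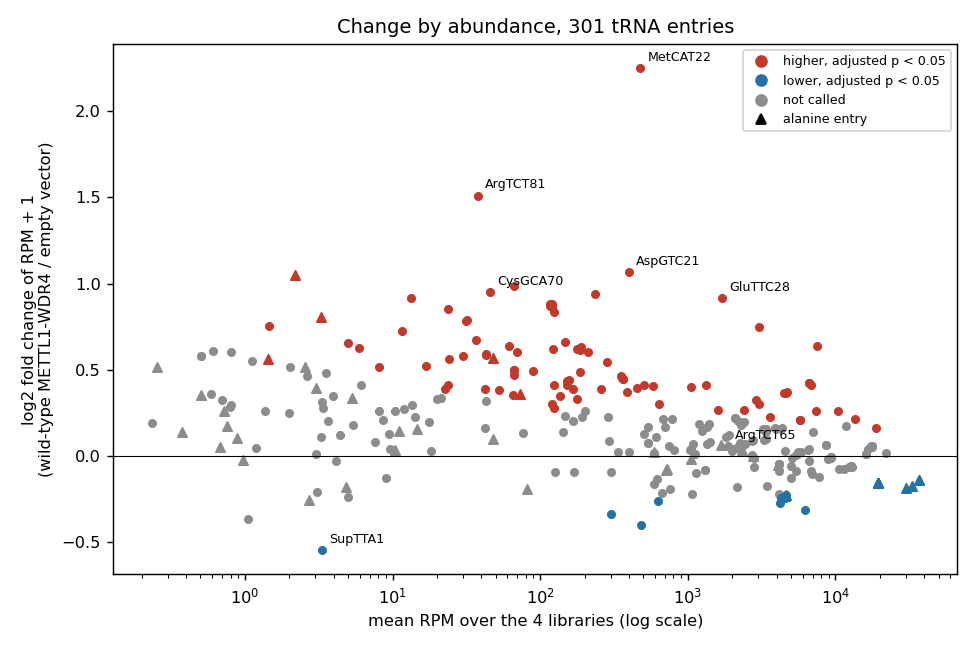
Log2 change of each of the 301 entries against its mean RPM over the 4 libraries (log axis), with alanine entries as triangles and called entries in colour. Rises cluster at low and middle abundance, and the 11 alanine entries above 10000 RPM are the called falls at the right.

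The changes differed by abundance across the whole table. Of all 301 entries 113 passed the threshold (37.5%), 91 higher (30.2%) and 22 lower (7.31%), and 225 had a positive log2 change. In 194 the groups did not overlap (64.5%), 149 with wild-type METTL1 above (49.5%) and 45 with it below (15.0%). Of the 43 entries with a mean of 10 to 100 RPM, 27 rose and 0 fell at a limma adjusted p under 0.05, with a median log2 change of 0.41. Of the 68 entries at 100 to 1000 RPM, 35 rose and 3 fell (median 0.29), and of the 103 at 1000 to 10000 RPM, 19 rose and 7 fell (0.06). Of the 31 above 10000 RPM, which held 58.4% of the empty vector reads, 3 rose and 11 fell (−0.06). The median log2 change was 0.16 over entries, 0.08 over anticodon sums and 0.07 over amino acid sums. Entries of 1 to 10 RPM (39 entries, 7 higher, 1 lower) and below 1 RPM (17 entries, 0 called) rest on few reads.

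Among anticodon sums, 12 of 54 passed (22.2%): 10 rose (18.5%) and 2 fell (3.7%). The groups did not overlap in 34 (63.0%), 22 with wild-type METTL1 above (40.7%) and 12 with it below (22.2%). The largest change of an abundant group was in glutamate tRNA with anticodon TTC, which pairs with the codon GAA and whose wobble U is known to carry a thiolated mcm5 modification. The GluTTC sum was 4909 and 4712 RPM with empty vector and 7302 and 7619 RPM with wild-type METTL1 (log2 change 0.63, SE 0.09, limma adjusted p = 0.00073). Both treated libraries lay far above both controls, and the call was lost in 1 of 16 alternative fits, without wild-type METTL1 library 2 (limma adjusted p = 0.099). Within the family GluTTC27, its most abundant entry, rose from 2367 and 2135 RPM to 3683 and 3875 RPM (0.75, limma adjusted p = 1.3e-06), and GluTTC28 from 1218 and 1145 to 2169 and 2283 RPM (0.91). GluTTC15, in contrast, had 1324 and 1432 RPM against 1451 and 1461 RPM (0.08, limma adjusted p = 0.51).

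The partner glutamate anticodon CTC, which pairs with GAG, had 5062 and 5320 RPM with empty vector and 6010 and 6000 RPM with wild-type METTL1 (log2 change 0.21, limma adjusted p = 0.092). The groups did not overlap, but the sum was not called. The balance between both glutamate anticodons moved: TTC made up 49.2% and 47.0% of glutamate tRNA reads with empty vector and 54.9% and 55.9% with wild-type METTL1. A share within an amino acid does not depend on how libraries are scaled. This shift of 7.30 points was the largest among the 40 anticodons with isoacceptors that held at least 1% of their amino acid.

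**Figure D3:**
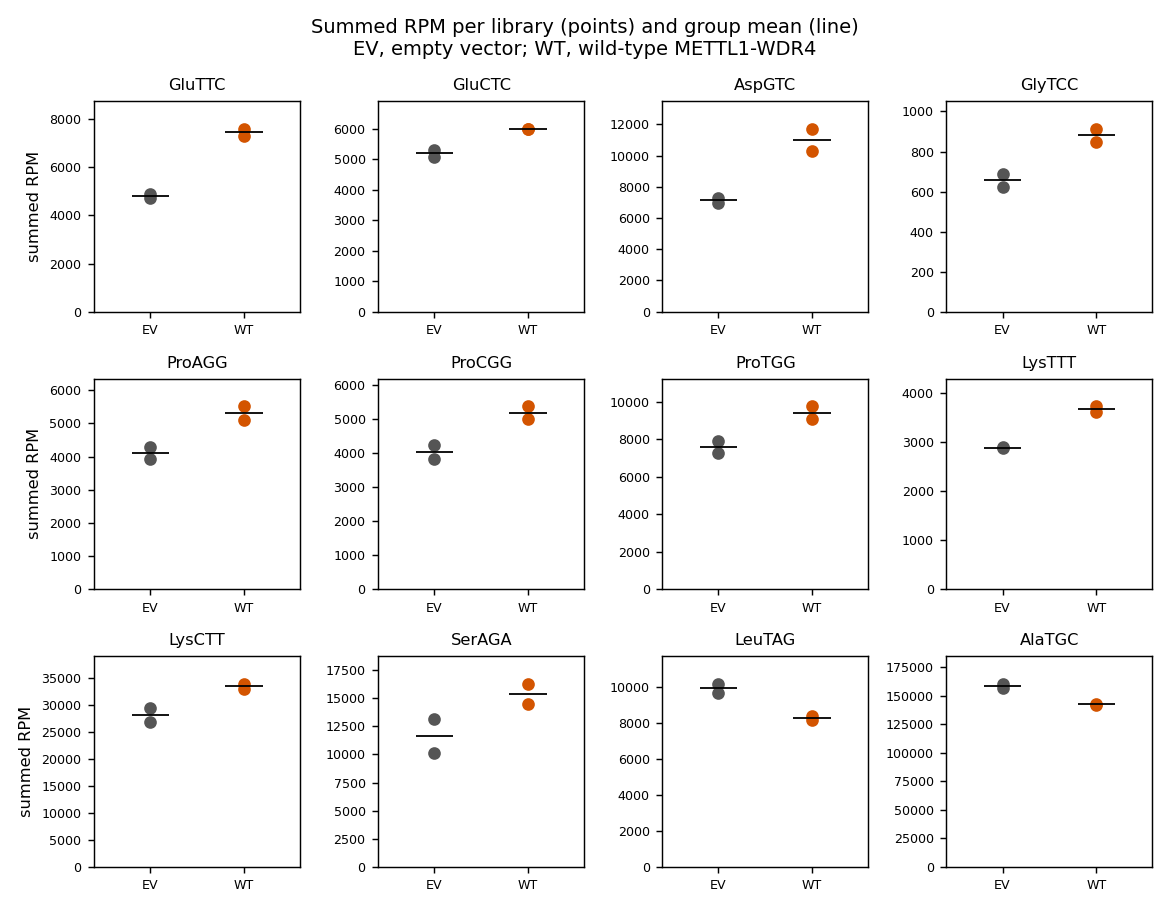
Summed RPM of 12 anticodons in each library (points; EV, empty vector; WT, wild-type METTL1-WDR4) with the group mean (line), each panel on its own axis from 0. In all 12 the groups do not overlap; of the 12, GluCTC, LysCTT, LeuTAG and AlaTGC did not pass the threshold.

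Aspartate has a single anticodon here, GTC, whose wobble G is known to be replaced by queuosine in mammals. Its sum was 7314 and 6954 RPM with empty vector and 10281 and 11736 RPM with wild-type METTL1 (log2 change 0.62, SE 0.09, limma adjusted p = 0.0014). The treated libraries differed from each other by more than the controls did, yet both were far above them. As an anticodon sum the call was lost without wild-type METTL1 library 2 (limma adjusted p = 0.18). All 4 entries rose, from AspGTC13 with 0.40 to AspGTC21 with 1.07, and AspGTC42, which held 81.8% of the family, went from 6044 and 5633 RPM to 8462 and 9724 RPM (0.64, limma adjusted p = 2.4e-06). RefSeq annotates 16 mouse genes for this anticodon on GRCm38.p6, against the 4 entries of the table.

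Proline was the only amino acid class with several anticodons in which each of the abundant ones was called higher. The lysine and glutamate anticodons also all had both treated libraries above both controls, but LysCTT and GluCTC were not called. ProAGG had 4303 and 3913 RPM with empty vector and 5101 and 5521 RPM with wild-type METTL1 (log2 change 0.37, SE 0.09, limma adjusted p = 0.016). ProCGG, a single entry, had 4246 and 3840 against 5009 and 5386 RPM (0.36, limma adjusted p = 0.016), and ProTGG had 7886 and 7245 against 9062 and 9765 RPM (0.32, limma adjusted p = 0.031). The 3 changes were alike, and so were the values of their leading entries: ProAGG37, ProCGG2 and ProTGG8 lay within 4.18% of each other in every library. Whether they hold the same reads was not tested, so the 3 calls are not separate evidence. ProGGG, a single entry of low abundance, had overlapping groups. Each of the 3 calls was lost without empty vector library 2, without either wild-type METTL1 library, and under both centrings. The mutant libraries in the fit, or replicate number as a block, also removed each call. That for ProTGG was also lost with a pseudocount of 0.5 and when libraries were rescaled over entries other than alanine.

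Lysine tRNAs showed the same direction at both anticodons. LysTTT, which pairs with AAA and is known to carry the thiolated wobble U, had 2886 and 2864 RPM with empty vector and 3723 and 3611 RPM with wild-type METTL1 (log2 change 0.35, SE 0.08, limma adjusted p = 0.013). Its control libraries were almost equal, and both treated libraries lay above them. The call was lost without wild-type METTL1 library 1 or 2, when centred on all entries, with the mutant libraries in the fit and with replicate number as a block. LysCTT, which pairs with AAG and was the more abundant, had 29434 and 26821 against 33971 and 33012 RPM (0.25, limma adjusted p = 0.068). Its sum was not called, although 18 of its 22 entries rose, where 30.2% of all entries did, from LysCTT45 with 0.26, the most abundant, to LysCTT134 with 0.79, which had 22.8 and 23.5 against 42.9 and 38.7 RPM. Asparagine, which shares the AAN box, had 8800 and 9032 against 8071 and 8657 RPM and was not called.

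Cysteine tRNAs, the family with most entries and with 56 annotated RefSeq genes, rose in most single entries but little in sum. CysGCA had 16493 and 15681 RPM with empty vector and 18461 and 19162 RPM with wild-type METTL1, a log2 change of 0.23. As an amino acid sum it was called (limma adjusted p = 0.016), and as an anticodon sum with the same change it was not (limma adjusted p = 0.077), because the spread is estimated and the p-values are adjusted over different sets of sums. Of its 28 entries 20 rose and 0 fell, where 30.2% of all entries rose and 7.31% fell, yet CysGCA37, the most abundant, went from 3332 and 3148 to 3550 and 3620 RPM and was not called (0.15, limma adjusted p = 0.17). CysGCA70 rose most, from 32.1 and 29.8 RPM to 58.75 and 62.8 RPM (0.95). For phenylalanine, PheGAA had 2805 and 2747 against 3167 and 3310 RPM (0.22, limma adjusted p = 0.016 as an amino acid sum), and as an anticodon sum it was not called.

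Glycine and serine each had a single anticodon that was called higher. GlyTCC, whose wobble U is known to carry mcm5, had 689.6 and 622.1 RPM with empty vector and 845.2 and 914.9 RPM with wild-type METTL1 (log2 change 0.42, SE 0.09, limma adjusted p = 0.010), and both of its entries rose. The call of the sum was lost when centred on all entries (0.052) and without wild-type METTL1 library 1 or 2 (0.14 and 0.47, each a limma adjusted p). The more abundant glycine anticodons GCC, CCC and ACC were not called, and their groups overlapped. SerAGA, whose wobble A is read as inosine, had 13128 and 10135 RPM with empty vector and 16292 and 14528 RPM with wild-type METTL1 (0.42, SE 0.12, limma adjusted p = 0.036). Its control libraries stood far apart, and the call was lost in 10 of 16 alternative fits, among them without empty vector library 2, where the log2 change was 0.23. SerAGA40 and SerTGA14, an entry of another serine anticodon, are among the near-identical pairs. The SerTGA sum had 10721 and 9119 against 12100 and 10990 RPM, without overlap, and was not called (0.22, limma adjusted p = 0.15).

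The selenocysteine tRNA, which inserts that amino acid at UGA codons, rose most of all sums. Its only entry had 17.4 and 15.9 RPM with empty vector and 32.1 and 29.6 RPM with wild-type METTL1, from 278, 86, 338 and 409 implied reads in that order (log2 change 0.85, SE 0.09, limma adjusted p = 0.00020). This call held in every alternative fit of the anticodon sums. AlaGGC, also called, rests on 1 and 0 reads with empty vector and 4 and 8 reads with wild-type METTL1, so it is reported only as listed near 0 and no fold is given.

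Both anticodon sums that fell are single entries of a few RPM. SupTTA1, an entry whose anticodon would pair with the stop codon UAA, had 3.62 and 4.62 RPM with empty vector and 2.76 and 2.24 RPM with wild-type METTL1 (log2 change −0.55, SE 0.12, limma adjusted p = 0.0095). As an anticodon sum its call was lost without wild-type METTL1 library 2 and with a pseudocount of 10 (limma adjusted p = 0.11). As a single entry SupTTA1 was called with a wider error (SE 0.20, limma adjusted p = 0.036). That call was lost with the mutant libraries in the fit and with entries under 1 RPM in both groups left out. It was also lost without empty vector library 2 or either wild-type METTL1 library. CysACA, a single entry at 1.31 and 1.29 against 0.856 and 0.724 RPM, stood on 7 to 21 reads per library (−0.37, limma adjusted p = 0.013). As a single entry in the fit over entries, the same CysACA values were not called (limma adjusted p = 0.23).

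Of abundant sums on the lower side, LeuTAG came nearest to the threshold. It had 10178 and 9658 RPM with empty vector and 8181 and 8375 RPM with wild-type METTL1 (log2 change −0.26, limma adjusted p = 0.051), and LeuAAG had 11094 and 10621 against 9111 and 9438 RPM (−0.23, limma adjusted p = 0.077). Both read CUN leucine codons, and in neither did the groups overlap. All 3 LeuTAG entries fell, and of the 4 LeuAAG entries 2 fell and LeuAAG9 rose, an entry near-identical to ProAGG41. LeuTAG was called lower, among others, under both centrings and when libraries were rescaled over entries other than alanine, settings that lower every sum. It was also called lower with near-identical entries counted once. The other leucine anticodons, CAA, CAG and TAA, were not called, nor was the leucine total, whose groups overlapped.

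**Figure D4:**
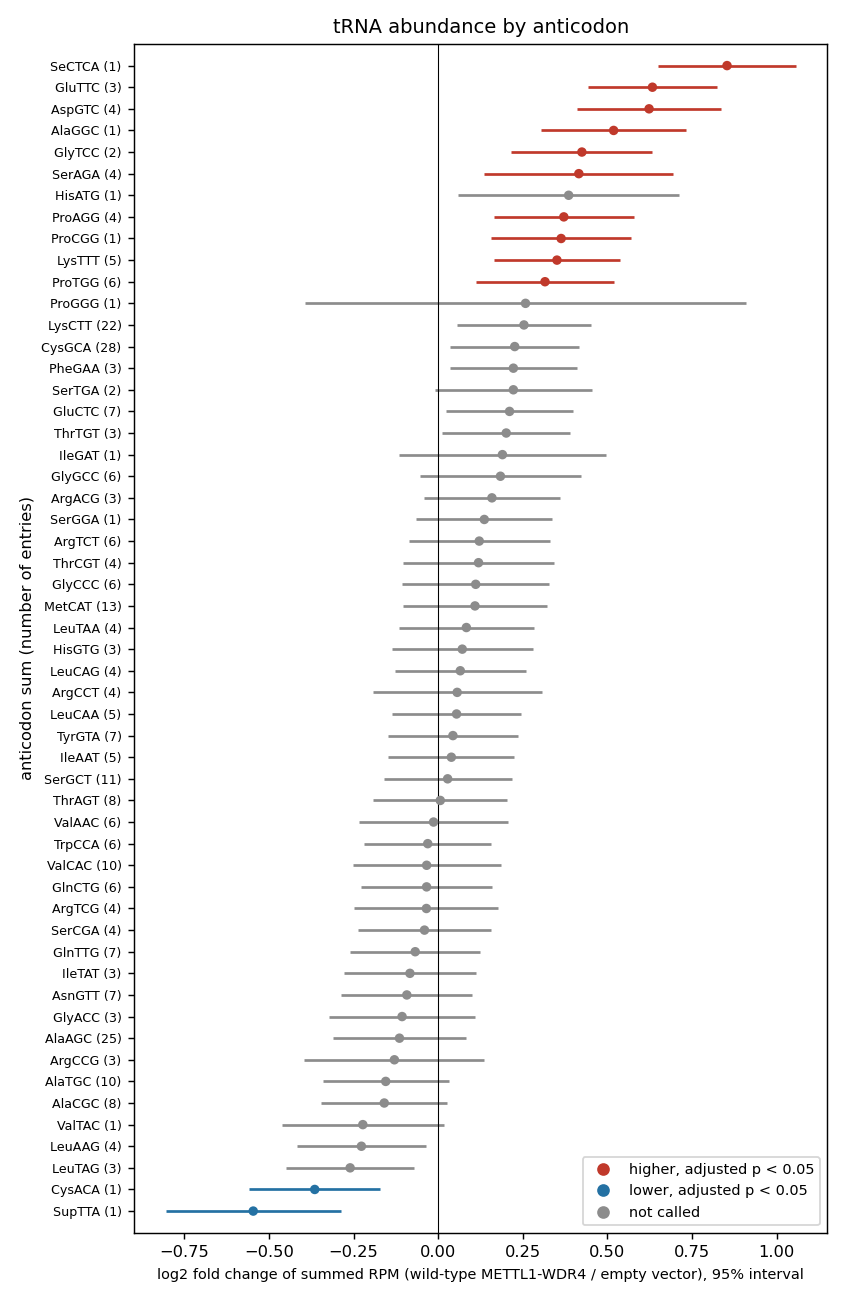
Log2 change of the summed RPM of each of the 54 anticodons with its 95% limma interval; the number of entries stands in brackets. Of the 12 called sums 10 lie to the right of 0, and most sums have intervals that reach 0.

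Arginine TCT, which pairs with the codon AGA, was not called as a sum. ArgTCT had 3740 and 4249 RPM with empty vector and 4318 and 4353 RPM with wild-type METTL1 (log2 change 0.12, 95% interval −0.09 to 0.33, limma adjusted p = 0.40). The groups did not overlap, but the controls stood further apart than the group means. As a mean of entry log2 values, which weights rare entries like abundant ones, ArgTCT was 0.38 and called (limma adjusted p = 0.030). ArgTCT65, the most abundant of its 6 entries, had 1725 and 1961 against 1898 and 1925 RPM. ArgTCT81 had 15.1 and 23.9 RPM with empty vector and 53.3 and 58.9 RPM with wild-type METTL1. It was the only entry of the 6 that was called (log2 change 1.51, limma adjusted p = 4.6e-07), and it held a small part of the family. Its implied reads were 242 and 129 against 561 and 813.

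The other 4 Arg-TCT entries were not called. ArgTCT126 had 1031 and 1212 against 1263 and 1275 RPM (0.18), ArgTCT57 651.6 and 667.5 against 738.3 and 740.7 RPM (0.16), ArgTCT31 299.9 and 368.3 against 345.0 and 330.1 RPM (0.02), and ArgTCT51 17.9 and 17.0 against 20.5 and 24.1 RPM (0.33). Within arginine, TCT made up 4.80% and 5.04% of reads with empty vector and 5.25% and 4.99% with wild-type METTL1, with overlapping groups. ArgACG, which reads CGN codons, had 31079 and 28089 against 33259 and 32702 RPM (0.16, limma adjusted p = 0.23), and its leading entry ArgACG2 rose by 0.16 (limma adjusted p = 0.047), a call lost in 10 of 15 alternative fits.

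The methionine sum was not called, while 2 of its 13 entries rose. MetCAT had 17513 and 19950 RPM with empty vector and 19700 and 20615 RPM with wild-type METTL1 (log2 change 0.11, limma adjusted p = 0.46), with overlapping groups. As a mean of entry log2 values it was 0.36 and called (limma adjusted p = 0.011). MetCAT22, chosen after its values were seen, had the largest log2 change of all entries, 2.25 (limma adjusted p = 1.8e-12), with 145.0 and 187.6 RPM against 767.4 and 810.4 RPM. The names do not separate initiator from elongator methionine tRNA.

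The shares of isoacceptors within an amino acid were then compared. Of the 40 anticodon shares of at least 1%, 32 did not overlap between the groups (80.0%), 17 with wild-type METTL1 above (42.5%) and 15 with it below (37.5%). Shares within an amino acid sum to 100%, so a rise in one forces a fall elsewhere and these counts are not separate results. The 32 include CysGCA and HisGTG, which moved by only 0.0039 and −0.040 points. Of the 40 shares, 8 moved by more than 2 points, among them ArgACG, whose groups overlapped. Within serine, AGA went from 25.7% and 22.5% to 29.4% and 28.1%, while CGA went from 19.8% and 21.2% to 17.9% and 17.8%. Within leucine, CAA went from 58.6% and 58.7% to 60.5% in both treated libraries, and TAG from a mean of 8.44% to 7.07% and 6.93%. These leucine shares were tight within groups. Within threonine, TGT went from 9.22% and 9.68% to 10.5% and 10.7%. Within alanine, CGC had 42.3% and 42.6% against 42.4% and 42.2%, but most CGC and TGC reads are in near-identical groups that span both anticodons, so their ratio says little. Shares within an amino acid were not tested.

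**Figure D5:**
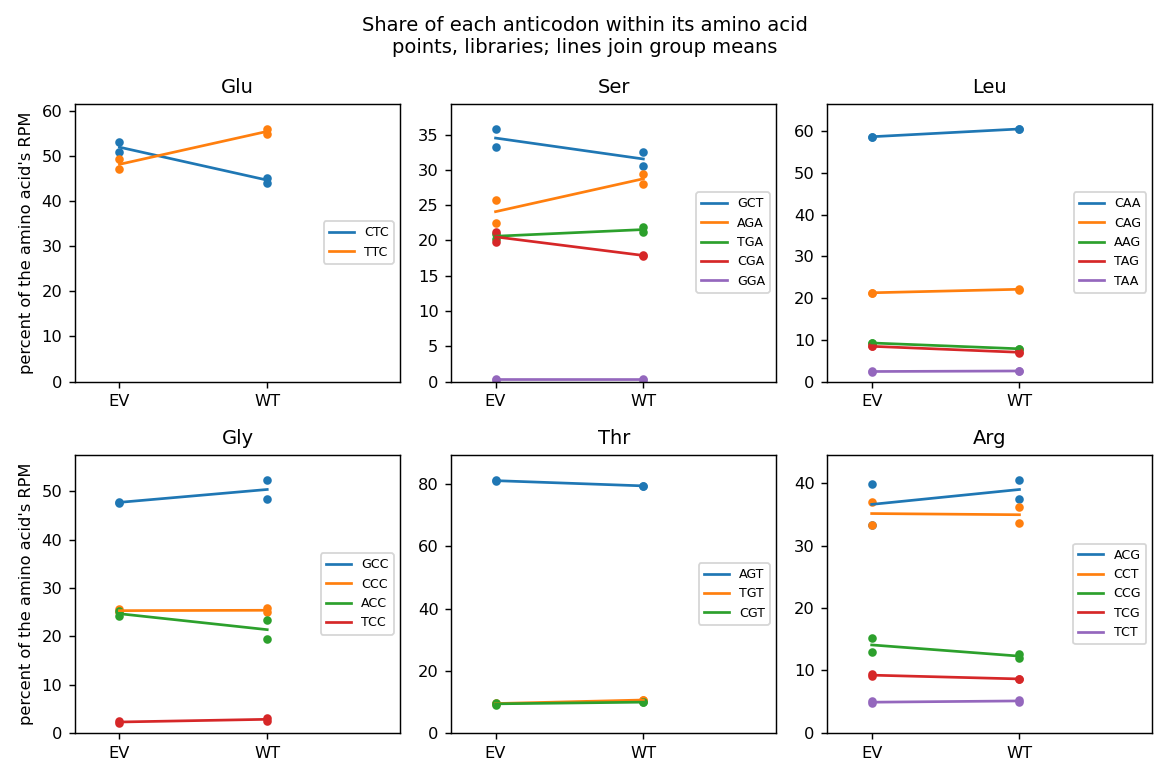
Share of each anticodon in the RPM of its amino acid, for 6 amino acids, in each library (points) with lines joining the means of empty vector (EV) and wild-type METTL1-WDR4 (WT). The glutamate anticodons change order, from CTC above TTC to TTC above CTC.

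Groups of tRNAs sharing a known modification were then summed. The m7G list, 20 anticodons chosen from background knowledge of tRNA variable loops, held 52.4% and 53.8% of reads with empty vector and 51.2% and 51.5% with wild-type METTL1, so its share was lower in both treated libraries. Without its 3 alanine anticodons the same list held 21.4% and 22.3% of all reads with empty vector and 23.0% and 23.5% with wild-type METTL1. The total still includes alanine, so a lower alanine share raises every other share. All anticodons other than alanine went from 69.0% and 68.4% to 71.8% and 72.0%. The log2 ratio of mean shares was 0.090 for the list without alanine and 0.065 for all anticodons other than alanine. Of the 176 entries of the full list 65 rose and 15 fell (median log2 change 0.20). Of the 105 entries of the no-m7G list, 26 anticodons chosen as lacking the mark, 25 rose and 6 fell (median 0.11). Its share of all reads went from 42.7% and 41.7% to 43.9% and 43.8%. This list holds no alanine, and its log2 ratio of mean shares, 0.055, was below the 0.065 of all anticodons other than alanine. Over all entries 30.2% rose, 7.31% fell and the median was 0.16. GluTTC, AspGTC, GlyTCC, SerAGA and SeCTCA, which include the largest sums that rose, belong to the no-m7G list, and ProAGG, ProCGG, ProTGG and LysTTT to the m7G list.

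Of the 5 anticodons with an mcm5-type wobble U, GluTTC, GlyTCC and LysTTT rose, and ArgTCT and GlnTTG, the most abundant of the 5, were not called. Over all anticodon sums 18.5% rose. The share of the 5 together averaged 6.13% with empty vector and 6.31% with wild-type METTL1, with overlapping groups. Of the 4 queuosine anticodons AspGTC rose, while HisGTG, TyrGTA and AsnGTT were not called. The 11 leucine, serine and selenocysteine anticodons with a long variable arm averaged 16.6% of reads with empty vector and 17.2% with wild-type METTL1, and the groups overlapped. Of the 8 anticodons with an inosine-forming wobble A, ProAGG and SerAGA rose. By wobble base, anticodons starting with G went from a mean of 13.0% to 14.1%, and those starting with T, AlaTGC among them, from 26.7% to 25.4%. Neither pair of groups overlapped. Without AlaTGC the anticodons starting with T went from 11% and 10.7% of all reads to 11.3% and 11.1%. That total still includes alanine, so a lower alanine share raises every other share. The log2 ratio of mean shares was 0.047 for this set, below the 0.065 of all anticodons other than alanine. No gain of its own relative to other non-alanine tRNAs is therefore shown.

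The change of the whole pool was modest against the spread between replicates. The part of the reads that would have to move to turn a library's profile over the 301 entries into another's was 3.43% between the empty vector libraries, 2.45% between the wild-type METTL1 libraries, and 4.29% to 5.80% between libraries of different groups. For amino acid sums it was 2.78% and 2.15% within groups and 3.64% to 4.69% between them. All 4 distances between groups exceeded both within groups at each level.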

How the data were processed

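Abundance values came from 1 table with the empty vector and wild-type METTL1-WDR4 columns, and a second table added the mutant METTL1 columns for 1 alternative fit. The authors deposited RPM, reads per 1000000 reads over tRNA entries. Trim Galore, Bowtie, bedtools and mm10 are named, without versions or roles, per the submitters' processing notes, and the sources used here do not give how reads matching several entries were counted. Column names do not say input or cleaved; they were read as input libraries because the series gives input samples for abundance. The deposited fold changes and p-values were not used. RPM values were whole multiples of the value of 1 read within 0.01 reads, which gave the implied totals; too few low values allowed a count test, so none was run. Those totals and reads carry counting error only, and they exceed the true depth where a read was counted more than once.

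Values were fitted as log2(RPM + 1) in limma 3.58.1 (R 4.3.3) on the 4 libraries, with a variance trend for entries and none for sums. RPM was summed before the log. P-values were BH-adjusted over all features of a level, and an adjusted p under 0.05 was called. A fold change on this scale understates changes of low entries. The fits of entries and of anticodon sums were also run on simulated data. Noise there was independent for each entry, so the simulation does not cover near-identical entries, nor the fits of the other sums. RefSeq gene numbers (GRCm38.p6) were matched by anticodon for 48 of 54 anticodons. Figures were drawn in Python 3.11.15.

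Members and lists were chosen with earlier results of these data known. Named were all called anticodon sums, the 5 other sums with the largest RPM change, the most abundant and most changed entry of each, all Arg-TCT entries, and entries at 0 in a library; other sums and entries named in the text were chosen after their values were seen. Entries at 0, all in empty vector library 2, were AlaAGC307, AlaGGC139, IleGAT158, LeuCAA11 and ProAGG21, in which a count of 0 allows up to 3 reads, or 0.555 RPM. The values of 1 codon box are not reported here.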

Additional observations from a re-analysis of the deposited data

How the results depend on the processing

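Of 77 named entries and sums under up to 16 alternatives, 966 of 1172 results kept direction and side of the threshold, 140 lost a call, 48 gained one and 18 turned sign. Where 1 library is left out, the lone library is assumed to vary like the other group. The cause of these differences was not tested.

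Counts of calls were 91 higher and 22 lower for entries, 10 and 2 for anticodon sums, 8 for amino acid sums and 2 for box sums. Leaving out 1 library gave 50 to 116 higher and 0 to 26 lower entries, 1 to 15 higher and 0 to 4 lower anticodon sums, 4 to 9 amino acid sums and 0 to 4 box sums. Without wild-type METTL1 library 2 the counts were 50, 2, 1, 0, 4 and 0 in that order, and without library 1 they were 58, 0, 4, 1, 5 and 0. Without empty vector library 2, 9 entries were lower, 6 anticodon sums higher and 5 amino acid sums called, and without library 1, 4 anticodon sums were lower and 4 boxes called. Centring on all entries, a shift of −0.14, gave 56 higher and 42 lower entries, 4 higher and 6 lower anticodon sums and 4 boxes. Centring on the no-m7G list gave 6 higher and 4 lower anticodon sums, and, for entries, 61 higher and 26 lower. Rescaling over entries other than alanine, added after seeing the data, gave 4 lower anticodon sums and, for entries, 71 higher and 28 lower. The common fit with the mutant libraries gave 2 lower entries, 5 higher anticodon sums and 5 amino acid sums. Without the variance trend 4 entries were lower, with near-identical entries counted once 12 were, and at a minimum of 10 RPM 1 anticodon sum was lower. The mean of entry log2 values gave 9 boxes. With replicate number as a block, 6 anticodon sums were higher and 1 lower, and 4 boxes were called. The deviations of same-numbered libraries had a correlation of 0.09. With 2 libraries per group this value cannot show whether the numbers pair the libraries. 

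Signs turned for ArgTCT31, ArgTCT65 and GluTTC15 when centred on all entries (−0.12, −0.085 and −0.060) and on the no-m7G list (−0.067, −0.033 and −0.0083), and for ArgTCT31 and ArgTCT65 when rescaled (−0.043 and −0.0096). The ArgTCT and MetCAT sums turned when centred on all entries (−0.020 and −0.032). Without 1 library ArgTCT31 ranged from −0.13 to 0.17, ArgTCT65 from −0.037 to 0.15, AlaAGC307 from −0.025 to 0.73 and IleGAT158 from −0.0065 to 0.39. With the mean of entry log2 values AlaTGC was 0.024, and alanine and the GCN box 0.083. The 24 uncalled amino acid and box sums given only as ranges turned sign in 57 of 384 fits. The edgeR alternative was not run.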
